A study of Mus musculus with 9 samples.

Results

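Retinoic acid is a small signal made from vitamin A, and the 10 genes described here make it, limit it, destroy it, carry it inside the cell or respond to it. They are Rdh10, Aldh1a1, Aldh1a2, Aldh1a3, Dhrs3, Cyp26a1, Cyp26b1, Crabp1, Crabp2 and Rarb. They were chosen by name for these roles, and all 10 were found among the 54532 genes of the deposited table and among the 17764 genes with enough reads to test.

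RNA came from mouse embryos of stage E14.5 with the genotype Creb5 3XHA-P2A-tdTomato/+; Sox9 iresEGFP/+, so every cell, in every group, carried 1 reporter allele at each gene. Creb5 encodes a bZIP transcription factor, and Sox9 encodes the transcription factor that directs cartilage formation. Knees were dissected by their fluorescence, digested with collagenase and sorted into double-positive cells (tdTomato and EGFP), RFP-only cells (tdTomato, the red reporter of Creb5) and GFP-only cells (EGFP, the green reporter of Sox9). Each population had 3 libraries, 1 from each of the litters numbered 1, 2 and 5, with 25199258 to 47079305 recovered reads. The deposited values are labeled as leaving out the litters numbered between 2 and 5. How many embryos a sample pooled is not known here, and a sample is defined by reporter fluorescence, not by a purified cell type.

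The reporters' host genes followed the sort. Creb5 lay between 2754 and 3408 normalized counts in double-positive libraries, between 2006 and 3531 in RFP-only libraries and between 138 and 274 in GFP-only libraries. Sox9 lay between 16565 and 29767 in double-positive libraries, between 1091 and 1891 in RFP-only libraries and between 22771 and 37992 in GFP-only libraries. All 9 cartilage markers set RFP-only below GFP-only cells, and all 9 set double-positive above RFP-only cells (limma, adjusted p under 0.05).

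Cells take up retinol, oxidize it reversibly to retinal, and oxidize retinal irreversibly to retinoic acid. The acid enters the nucleus, where a retinoic acid receptor paired with a retinoid X receptor binds direct repeats of a short hexamer and regulates the gene beside it. In the limb, cells that make the acid and cells that degrade it occupy different territories, and forming cartilage is a tissue in which the signal is kept low.

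Rarb and Cyp26a1 are textbook examples of genes that retinoic acid itself induces, through such repeats close to their starts. The 100 bases before a RefSeq start (GRCm38.p6) are shown here for both, and for Cyp26b1 as the related gene without the repeat in its window. Each runs 5′ to 3′ along the gene's strand. Capitals mark a pair of hexamers 5 bases apart.
Rarb, chr14:16575477-16575576, minus strand: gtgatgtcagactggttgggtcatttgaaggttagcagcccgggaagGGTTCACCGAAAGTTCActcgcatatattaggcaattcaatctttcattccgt
Cyp26a1, chr19:37697708-37697807, plus strand: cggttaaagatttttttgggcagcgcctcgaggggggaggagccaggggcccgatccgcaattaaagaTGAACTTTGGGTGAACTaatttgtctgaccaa
Cyp26b1, chr6:84593811-84593910, minus strand: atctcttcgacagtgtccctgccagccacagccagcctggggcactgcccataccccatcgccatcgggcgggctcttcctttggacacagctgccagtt

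The search took the hexamer AGGTCA and its variant AGTTCA, as well as GGGTCA and its variant GGTTCA. It looked for any pair of these in the same direction, with a spacer of 5 bases, on both strands. In Rarb the repeat read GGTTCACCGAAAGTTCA at positions -53 to -37 from the start. In Cyp26a1 it lay on the opposite strand, where it read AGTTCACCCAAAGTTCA, at positions -32 to -16. Of 32851 RefSeq windows of 300 bases (250 before to 50 after a start), 32 held a match, or 0.0974%. RefSeq gave 10 windows for 7 of the 10 genes (none for Aldh1a3, Rdh10 and Crabp2), and those of Rarb and Cyp26a1 were the matches. Both genes were already known for such repeats, as said above, so the share over all windows is no test of their matches. A match is a description of letters, and no binding was measured here.

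The values below are normalized counts as deposited, in which libraries were scaled to each other and gene length was not taken into account. Fold changes are on the log2(normalized count + 1) scale with their standard error (SE), which understates changes of low genes. A gene was called where its adjusted p (limma, two-sided, Benjamini-Hochberg over all genes tested) was under 0.05. In bulk RNA, fewer cells of a type and less RNA per cell cannot be told apart, so a level is the average of a sorted population.

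**Figure D1:**
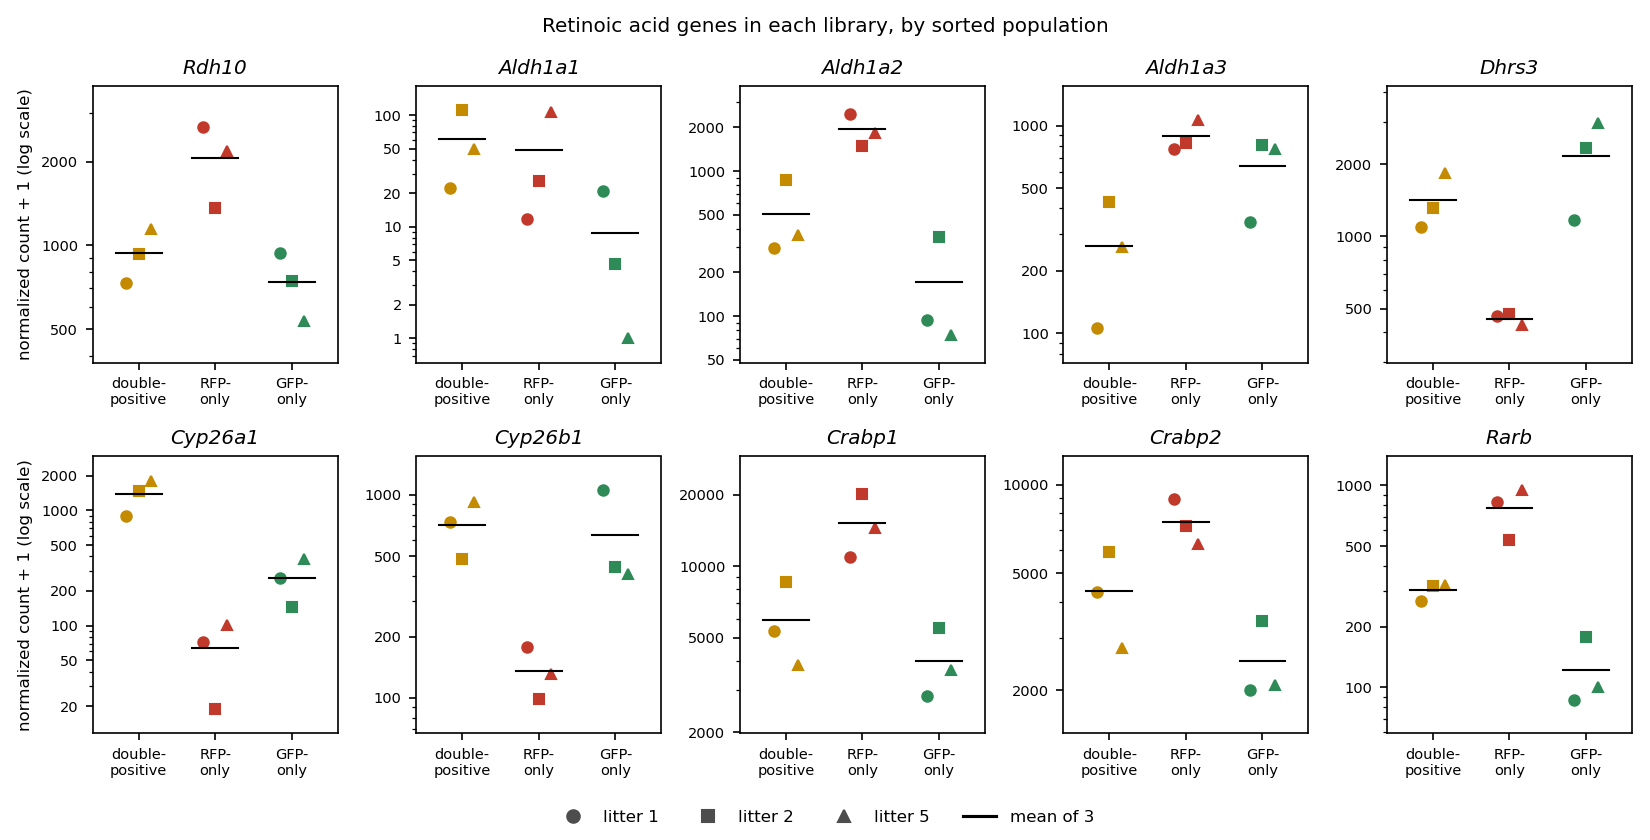
Normalized count + 1 of each of the 10 genes (log scale, vertical) in the 9 libraries by sorted population (horizontal), with symbols for litters 1, 2 and 5 and a line at the mean of 3 libraries. RFP-only libraries sit highest for Rdh10, Aldh1a2, Crabp1, Crabp2 and Rarb and lowest for Cyp26a1, Cyp26b1 and Dhrs3.

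The most calls among the 10 genes were found in RFP-only against GFP-only cells. Relative to GFP-only cells, RFP-only cells had more RNA of Rdh10 and Aldh1a2, which take part in making retinoic acid from vitamin A. They also had more RNA of both carriers and of the receptor gene Rarb. They had less RNA of the genes that degrade the acid (Cyp26a1, Cyp26b1) or take its precursor back (Dhrs3). The other synthesis genes, Aldh1a1 and Aldh1a3, did not pass (adjusted p = 0.117 and 0.445). In that comparison 8 of the 10 genes passed, 5 higher and 3 lower, where 20.3% of all tested genes passed (11.8% higher and 8.48% lower). The values of RFP-only and GFP-only libraries did not overlap for 8 of the 10 genes, against 39.4% of all genes.

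Double-positive cells had the most Cyp26a1 RNA of the 3 populations. In double-positive against GFP-only cells, 2 of 10 genes passed, Cyp26a1 and Rarb, both higher, where 8.29% of all genes passed (5.27% higher and 3.02% lower). Their libraries did not overlap for 3 of the 10 genes, against 28.1% of all genes. In double-positive against RFP-only cells, 3 of 10 genes passed, Cyp26a1, Cyp26b1 and Dhrs3, all higher, and none of the 5 genes that set RFP-only above GFP-only cells passed (adjusted p 0.0556 to 0.217), where 2.85% of all genes passed (1.8% higher and 1.05% lower). Non-overlap was found for 9 of the 10 genes there, against 23.8% of all genes. The median log2 fold change of the 10 genes was 0.66 in double-positive against GFP-only cells, 1.54 for RFP-only relative to GFP-only cells and -0.97 in double-positive against RFP-only cells, beside 0.04, 0.05 and -0.01 over all genes. These comparisons share libraries pairwise and are not independent of each other.

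The count of 3 between double-positive and RFP-only cells changed under several alternatives. DESeq2 called 8 of the 10, as did the same fit without the litter 5 library of GFP-only cells, which enters this comparison through the shared spread alone. The 5 genes added in both cases were Aldh1a2, Aldh1a3, Rdh10, Crabp1 and Rarb, all lower in double-positive cells. Leaving out litter 1 or 5 from the double-positive libraries, or litter 2 from the RFP-only libraries, gave a count of 1. In double-positive against GFP-only cells the count of 2 became 0 when litter 2 or 5 was left out of the double-positive libraries.

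**Figure D2:**
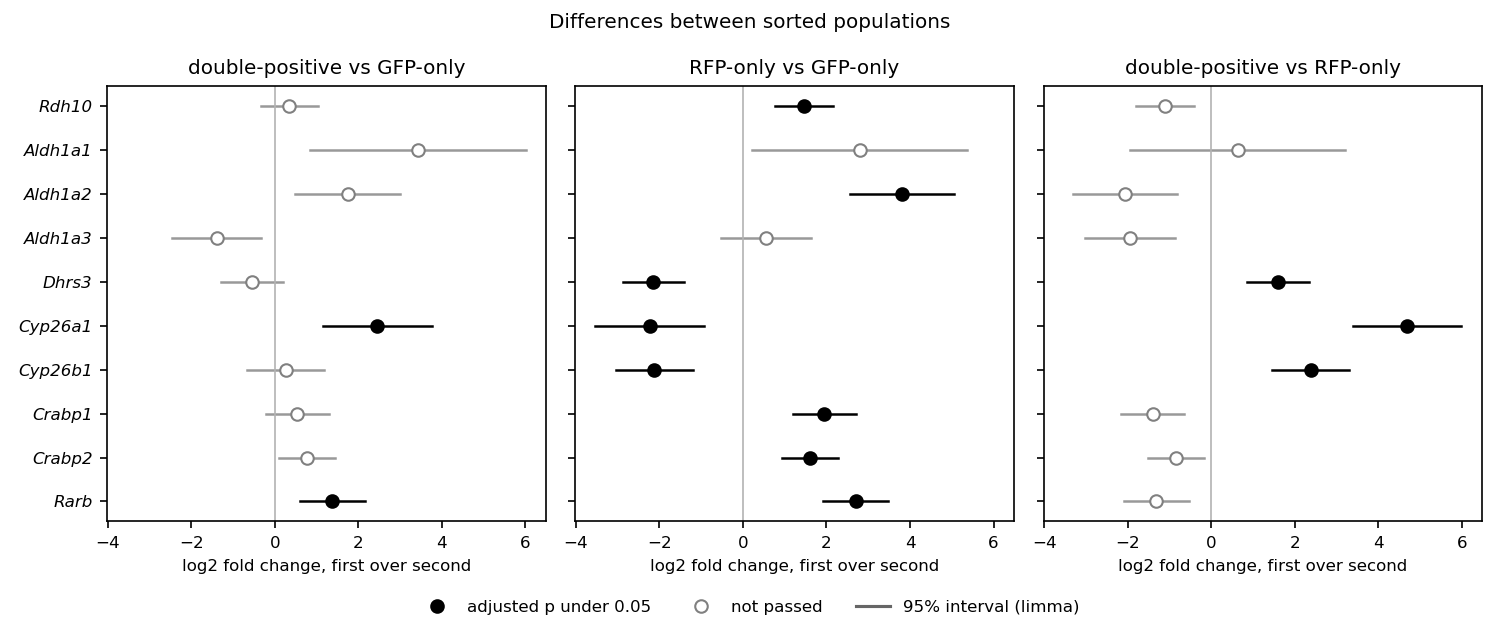
Log2 fold change of each of the 10 genes with its 95% confidence interval, in each comparison of sorted populations, from limma on 3 libraries per population, with calls at adjusted p under 0.05 filled. Between RFP-only and GFP-only cells 8 of the 10 genes pass, 5 to the higher side and 3 to the lower.

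The first step of synthesis is the oxidation of retinol to retinal, for which Rdh10 is the main enzyme of the embryo. Rdh10 (ENSMUSG00000025921, plus strand, chr1:16105774-16133734, GRCm38) had 730.2, 932 and 1143 normalized counts in the double-positive libraries of litters 1, 2 and 5, 2652, 1360.0 and 2178 in the RFP-only libraries, and 937, 746 and 533 in the GFP-only libraries. Every RFP-only library was above every library of the other populations, while double-positive and GFP-only values overlapped. RFP-only cells exceeded GFP-only cells in Rdh10 by a log2 fold change of 1.47 ± 0.31 (SE; adjusted p = 0.00728). The difference of double-positive from GFP-only cells was 0.35 (95% interval -0.33 to 1.04, adjusted p = 0.513). That of double-positive from RFP-only cells was -1.11 (-1.80 to -0.42, adjusted p = 0.0971), which did not pass although the libraries did not overlap.

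The retinal dehydrogenases carry out the last, irreversible step. Aldh1a2 is the one that supplies most retinoic acid to the early embryo. Aldh1a2 (ENSMUSG00000013584, plus strand, chr9:71215789-71296243) had 293, 872 and 361 normalized counts in double-positive libraries, 2488, 1489 and 1834 in RFP-only libraries, and 93.4, 350.1 and 73.3 in GFP-only libraries, in the litter order 1, 2 and 5 that is used throughout. The RFP-only libraries stood above all others, and the litter 2 library was the highest of both the double-positive and the GFP-only population. RFP-only cells exceeded GFP-only cells in Aldh1a2 by a log2 fold change of 3.81 ± 0.57, a 14-fold difference (adjusted p = 0.000925), the largest of the 10 genes in that comparison. Without the GFP-only library of litter 2 it was 4.5 (adjusted p = 0.000177).

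In double-positive cells Aldh1a2 had intermediate values. Its difference from GFP-only cells was 1.75 ± 0.57 and did not pass (adjusted p = 0.0844), with overlapping libraries but 1 sign in all 3 litters. It passed without the GFP-only library of litter 2 (2.44, adjusted p = 0.0114) and with DESeq2 (1.56, adjusted p = 0.0451). The difference from RFP-only cells was -2.06 ± 0.57 (adjusted p = 0.09), with no overlap.

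Aldh1a3, the retinal dehydrogenase best known from the eye and nasal region, had another order. Aldh1a3 (ENSMUSG00000015134, minus strand, chr7:66390890-66427517) had 105, 426 and 259 normalized counts in double-positive libraries, 770.1, 826 and 1061 in RFP-only libraries, and 342, 803 and 768 in GFP-only libraries. In each litter the double-positive library was the lowest of the 3. Neither difference of these cells passed: it was -1.95 ± 0.49 from RFP-only (adjusted p = 0.061) and -1.39 ± 0.49 from GFP-only cells (adjusted p = 0.105). With litter as a block both passed, with adjusted p = 0.0221 and 0.0431. RFP-only and GFP-only cells differed by 0.56 (95% interval -0.52 to 1.63, adjusted p = 0.445).

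Aldh1a1, a retinal dehydrogenase best known from the dorsal retina and from adult tissues, was rare. Aldh1a1 (ENSMUSG00000053279, plus strand, chr19:20492715-20643465) had 21.1, 109.9 and 48.6 normalized counts in double-positive libraries, 10.7, 24.9 and 106 in RFP-only libraries, and 19.8, 3.67 and 0 in GFP-only libraries. The 0 was no read among 36545557, which allows up to 4.07 normalized counts in that library (3 reads, counting error only). The values spread widely within each population. No comparison of Aldh1a1 passed. The adjusted p was 0.0975 for double-positive and 0.117 for RFP-only cells, each set against GFP-only cells, and 0.949 between double-positive and RFP-only cells. Leaving out the litter 1 library of the GFP-only population left that population at 3.67 and 0. Aldh1a1 then passed as higher in double-positive (4.52, adjusted p = 0.0377) and RFP-only cells (3.88, adjusted p = 0.0361).

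Per kilobase of exon, the retinal dehydrogenases could be compared with each other. The 3 genes together had 294 ± 182 normalized counts per kilobase in double-positive cells, 1057 ± 213 in RFP-only cells and 216 ± 106 in GFP-only cells (SD, n = 3). Aldh1a2 made up 76.9% ± 6.0 of that level in double-positive, 80.4% ± 5.53 in RFP-only and 32.6% ± 15.4 in GFP-only cells. Aldh1a3 made up 19.3% ± 5.23, 18.7% ± 4.79 and 66.2% ± 15.9 in the same order of populations. GFP-only libraries thus held mostly Aldh1a3 among these genes, between 52.8% and 83.7%, and libraries of the other populations mostly Aldh1a2, between 70.8% and 86.7%. These shares were not tested.

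**Figure D3:**
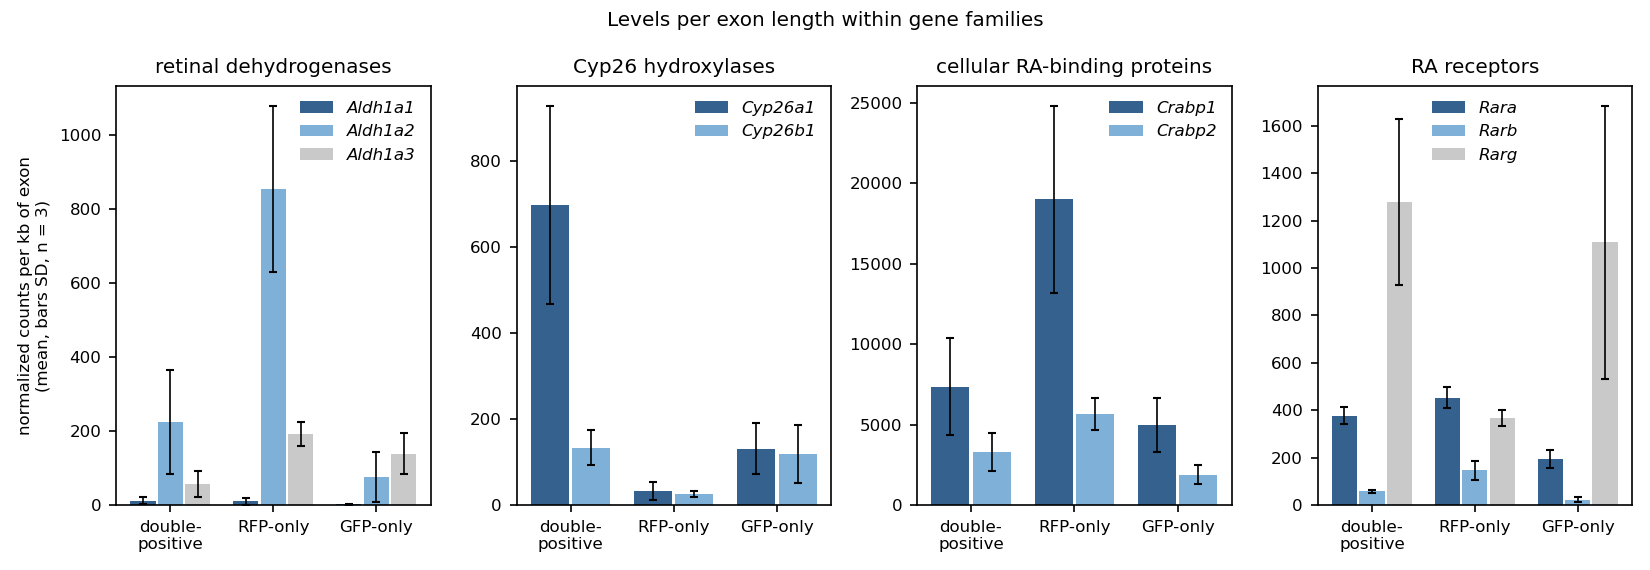
Normalized counts per kilobase of exon for the members of each enzyme, carrier and receptor family, by sorted population, with bars at the mean of 3 libraries and error bars of 1 SD. Aldh1a2 leads the retinal dehydrogenases in double-positive (225) and RFP-only cells (856) and Aldh1a3 in GFP-only cells (138), and Crabp1 exceeds Crabp2 in each population.

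Dhrs3 reduces retinal back to retinol and so holds back synthesis, and it is itself induced by retinoic acid. Dhrs3 (ENSMUSG00000066026, plus strand, chr4:144892827-144928209) had 1092, 1313 and 1828 normalized counts in double-positive libraries, 462, 472 and 426 in RFP-only libraries, and 1169.7, 2336 and 2958 in GFP-only libraries. The RFP-only libraries were the 3 lowest and lay close together. RFP-only cells had less Dhrs3 RNA than GFP-only cells (-2.15 ± 0.33, adjusted p = 0.0012). Double-positive cells exceeded RFP-only cells in Dhrs3 (1.60 ± 0.33, adjusted p = 0.0288), a call that ended without any 1 of the double-positive or RFP-only libraries (log2 fold changes 1.40 to 1.77, adjusted p 0.0612 to 0.126) and with no trend in the variance prior (adjusted p = 0.0758). Double-positive and GFP-only cells differed by -0.54 (95% interval -1.28 to 0.19, adjusted p = 0.339).

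Cyp26a1 and Cyp26b1 encode cytochrome P450 enzymes that hydroxylate retinoic acid for clearance. Cyp26b1 is the one best known for protecting limb and cartilage from the acid. Cyp26a1 (ENSMUSG00000024987, plus strand, chr19:37697798-37701536) had 893, 1461 and 1797 normalized counts in double-positive libraries, 70.8, 18.1 and 99.4 in RFP-only libraries, and 257, 144 and 379.9 in GFP-only libraries. The 3 populations did not overlap, with double-positive cells highest, GFP-only cells between and RFP-only cells lowest, in every litter.

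Double-positive cells exceeded RFP-only cells in Cyp26a1 by 4.69 ± 0.59, or 25.7-fold (adjusted p = 0.00159). This call held in all 20 alternatives, with log2 fold changes of 3.97 to 5.16 and the lowest without the RFP-only library of litter 2. They exceeded GFP-only cells by 2.45 ± 0.59, or 5.48-fold (adjusted p = 0.0284). That call ended when the litter 2 or 5 library of the double-positive population was left out (adjusted p = 0.103 and 0.0952), or the litter 1 or 2 library of the GFP-only population (adjusted p = 0.0511 and 0.073), and with no trend in the variance prior (adjusted p = 0.0684). RFP-only cells had less Cyp26a1 RNA than GFP-only cells (-2.23 ± 0.59, adjusted p = 0.0216). Leaving out the litter 2 library of RFP-only cells gave -1.51 (adjusted p = 0.0578), and leaving out the litter 5 library of GFP-only cells gave -1.91 (adjusted p = 0.0661). It also ended with no trend in the variance prior and with only the populations compared (adjusted p up to 0.0569).

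Cyp26b1 separated RFP-only cells from both other populations. Cyp26b1 (ENSMUSG00000063415, minus strand, chr6:84571414-84593908) had 732, 483 and 922 normalized counts in double-positive libraries, 177, 97.4 and 130.2 in RFP-only libraries, and 1056, 442 and 406 in GFP-only libraries. Double-positive and GFP-only libraries overlapped, and every RFP-only library lay below them. RFP-only cells had less of it than GFP-only cells (-2.12 ± 0.42, adjusted p = 0.00472), and double-positive cells had more than RFP-only cells (2.39 ± 0.42, adjusted p = 0.0119). The call between double-positive and RFP-only cells ended without either the litter 1 or litter 5 library of the first, or the litter 2 library of the second, with adjusted p of 0.0594 to 0.0636. Double-positive and GFP-only cells differed by 0.26 (95% interval -0.66 to 1.18, adjusted p = 0.732).

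The pair of hydroxylase genes differed in their balance per kilobase of exon. Cyp26a1 made up 83.3% ± 6.23 of their summed level in double-positive cells, 50.9% ± 17.0 in RFP-only cells and 52.7% ± 16.8 in GFP-only cells (SD, n = 3). The summed level was 831 ± 246 normalized counts per kilobase in double-positive cells, 56.8 ± 25.7 in RFP-only cells and 249.9 ± 87.0 in GFP-only cells. The lowest share of Cyp26a1 in a double-positive library was 76.7%, above the highest in RFP-only cells (67.3%) and in GFP-only cells (71.7%). Cyp26c1, the remaining gene of the family, was too low to test, with 3.84, 2.34 and 5.23 normalized counts in double-positive libraries, no read in RFP-only libraries, and 1.65, 7.35 and 0 in GFP-only libraries.

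Crabp1 and Crabp2 encode the cytosolic carriers of retinoic acid. Crabp2 hands the acid to nuclear receptors, and Crabp1 is linked to its retention and breakdown in the cytosol. Crabp1 (ENSMUSG00000032291, plus strand, chr9:54764748-54773110) had 5307, 8597 and 3826 normalized counts in double-positive libraries, 10970.5, 20218 and 14542 in RFP-only libraries, and 2841, 5483 and 3643 in GFP-only libraries. The RFP-only libraries were the 3 highest, and the litter 2 library was the highest of each population. RFP-only cells exceeded GFP-only cells in Crabp1 by 1.94 ± 0.34, or 3.84-fold (adjusted p = 0.00254), with log2 ratios within litters of 1.95, 1.88 and 2.00. Double-positive cells differed from RFP-only cells by -1.40 ± 0.34, which did not pass (adjusted p = 0.0556) but did with litter as a block (adjusted p = 0.0121). From GFP-only cells they differed by 0.54 (95% interval -0.21 to 1.29, adjusted p = 0.352).

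Crabp2 (ENSMUSG00000004885, plus strand, chr3:87948666-87953376) had 4330.2, 5899 and 2793 normalized counts in double-positive libraries, 8917, 7229 and 6282 in RFP-only libraries, and 2001, 3448 and 2074 in GFP-only libraries. Again every RFP-only library was above the rest, and in each litter the double-positive library lay between the other two. RFP-only cells exceeded GFP-only cells in Crabp2 (1.61 ± 0.30, adjusted p = 0.00379). The differences of double-positive cells were 0.77 ± 0.30 from GFP-only cells (adjusted p = 0.146) and -0.83 ± 0.30 from RFP-only cells (adjusted p = 0.217). Per kilobase the carriers were the most abundant of the 10 genes. Crabp1 stood at 7369 ± 3045 normalized counts per kilobase in double-positive cells, 19007 ± 5815 in RFP-only cells and 4974 ± 1689 in GFP-only cells, and Crabp2 at 3283 ± 1175, 5655 ± 1009.7 and 1897 ± 616.

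Rarb encodes a retinoic acid receptor and is a direct target of the signal, which makes its RNA a common readout of it. Rarb (ENSMUSG00000017491, minus strand, chr14:16430839-16819156) had 266, 317 and 319 normalized counts in double-positive libraries, 826, 538 and 949 in RFP-only libraries, and 86.0, 178 and 99.0 in GFP-only libraries. The populations did not overlap, with RFP-only cells highest, double-positive cells between and GFP-only cells lowest, an order that held in each litter. The start shown above with the repeat lies inside this span, and the table does not separate transcripts of different starts. Cyp26a1 and Dhrs3, also described above as induced by the acid, had the opposite direction in RFP-only relative to GFP-only cells (-2.23 and -2.15). The signal itself was not measured.

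RFP-only cells exceeded GFP-only cells in Rarb by 2.70 ± 0.35, or 6.48-fold (adjusted p = 0.000431), a call that held in all 20 alternatives. Double-positive cells exceeded GFP-only cells by 1.38 ± 0.35, or 2.6-fold (adjusted p = 0.0368). With litter as a block that difference did not pass (adjusted p = 0.0514), nor without any 1 of the double-positive libraries (adjusted p 0.0781 to 0.119), the RFP-only library of litter 1 or 5 (adjusted p = 0.0673 and 0.0548) or the GFP-only library of litter 1 or 5 (adjusted p = 0.0828 and 0.0608). It also ended with no filter, quantile normalization, no trend in the variance prior, or only the populations compared (adjusted p 0.0534 to 0.105). Double-positive cells differed from RFP-only cells by -1.32 ± 0.35 (adjusted p = 0.0804).

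Reads of a neighbor may count toward Rarb. Of its exon bases, 1793, or 34.1%, overlap Top2b, a topoisomerase gene on the opposite strand, and the strand setting of the counting is not given. Top2b had 5507 ± 709.6 normalized counts in double-positive cells, 6760.3 ± 2197 in RFP-only cells and 4319 ± 1835 in GFP-only cells. None of its differences passed. Relative to GFP-only cells, Top2b differed by 0.45 in double-positive (adjusted p = 0.45) and by 0.70 in RFP-only cells (adjusted p = 0.181), and double-positive cells differed from RFP-only cells by -0.25 (adjusted p = 0.918).

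The other receptors had other orders. Rara, the receptor gene expressed most widely in the embryo, was higher in double-positive (0.97 ± 0.22, adjusted p = 0.0235) and in RFP-only cells (1.24 ± 0.22, adjusted p = 0.00299) than in GFP-only cells. The call of double-positive cells ended in 3 of 20 alternatives. Rarg, the receptor gene of cartilage and its precursors, had 5851, 3790.5 and 6696 normalized counts in double-positive libraries, 1731, 1517 and 1455 in RFP-only libraries, and 6796, 5359.8 and 2018 in GFP-only libraries. The RFP-only libraries were lowest, so that the order of Rarg was not that of Rarb. Double-positive cells had more Rarg RNA than RFP-only cells (1.76 ± 0.39, adjusted p = 0.0385), and RFP-only cells had less than GFP-only cells (-1.42 ± 0.39, adjusted p = 0.0261). Each Rarg call ended in 7 of 20 alternatives, with adjusted p up to 0.157 and 0.0865. Of the summed level of the 3 receptor genes per kilobase, Rarb made up 3.45% ± 0.927 in double-positive cells, 15.2% ± 4.36 in RFP-only cells and 2.02% ± 1.04 in GFP-only cells, and Rarg 73.7% ± 6.79, 38.0% ± 1.12 and 81.5% ± 6.96. Of Rxra, Rxrb and Rxrg, the partner receptors, none passed in any comparison, while Rxrg (1.40 ± 0.50 in RFP-only relative to GFP-only cells, adjusted p = 0.0684) did with litter as a block (adjusted p = 0.048).

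One gene of synthesis and one of degradation were set against each other within each library, by the log2 ratio of Aldh1a2 to Cyp26b1. It was -1.32, 0.85 and -1.35 in double-positive libraries, 3.81, 3.92 and 3.81 in RFP-only libraries, and -3.48, -0.34 and -2.45 in GFP-only libraries. The RFP-only libraries stood apart from all others and spread least, and litter 2 gave the highest ratio of both other populations. The ratio takes no account of gene length, so it is read only between libraries. RFP-only cells exceeded GFP-only cells by 5.94 and double-positive cells differed from RFP-only cells by -4.45 (exact two-sided permutation p = 0.1 each, adjusted p = 0.3). With 3 libraries against 3, 0.1 is the smallest p this test can give. Double-positive cells differed from GFP-only cells by 1.49 (exact permutation p = 0.3, adjusted p = 0.36), with 1 sign in all litters (1.10 to 2.17). Leaving out the litter 2 library of double-positive cells gave 0.757 for this difference. Dropping a single GFP-only library gave 0.788 (litter 1) or 2.36 (litter 2).

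The sign of that difference changed with the hydroxylase chosen. With Cyp26a1 in place of Cyp26b1, an alternative added after the data were seen, the log2 ratio was -1.60, -0.74 and -2.31 in double-positive libraries, 5.11, 6.28 and 4.19 in RFP-only libraries, and -1.45, 1.27 and -2.36 in GFP-only libraries. Double-positive cells then differed from GFP-only cells by -0.71 (exact permutation p = 0.7), the opposite sign. RFP-only cells still stood apart, by 6.04 above GFP-only cells, and double-positive cells differed from them by -6.75 (exact permutation p = 0.1 each).

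The ratio of Crabp1 to Crabp2 varied less. It was 0.29, 0.54 and 0.45 on the log2 scale in double-positive libraries, 0.30, 1.48 and 1.21 in RFP-only libraries, and 0.51, 0.67 and 0.81 in GFP-only libraries. The RFP-only library of litter 1 lay with the other populations. Relative to GFP-only cells, the ratio differed by -0.23 in double-positive (exact permutation p = 0.2) and by 0.34 in RFP-only cells (exact permutation p = 0.4). Double-positive cells differed from RFP-only cells by -0.57 (exact permutation p = 0.3). Adjusted over the 6 ratio comparisons, these p were 0.36, 0.4 and 0.36. The difference of RFP-only from GFP-only cells became 0.685 when litter 1 was dropped from the RFP-only libraries and 0.0927 when litter 2 was. That of double-positive from RFP-only cells became -0.917 and -0.325 in the same order.

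**Figure D4:**
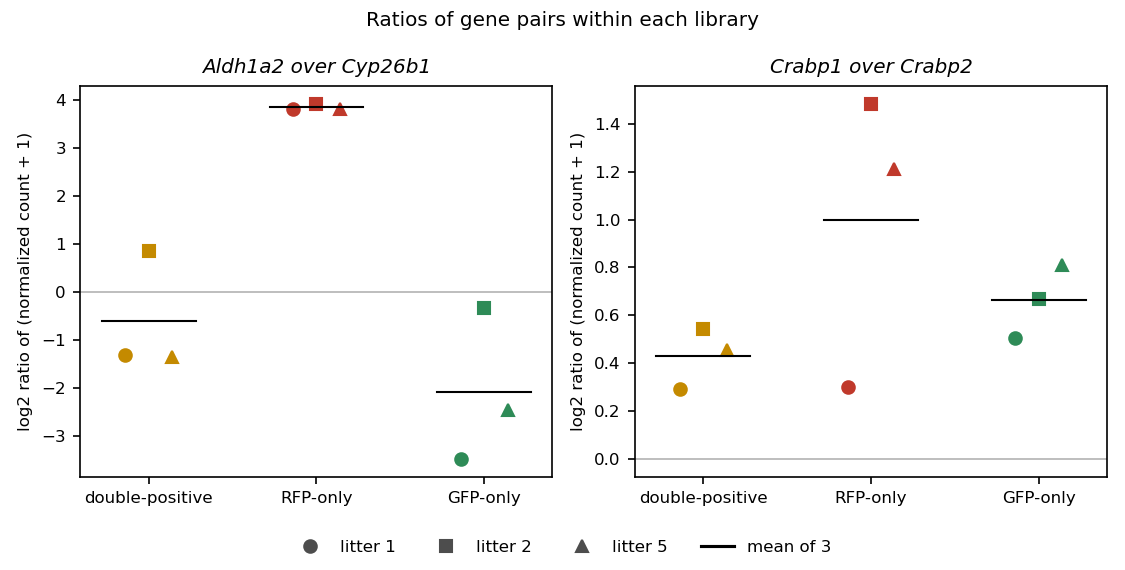
Log2 ratios of Aldh1a2 to Cyp26b1 and of Crabp1 to Crabp2 within each library (vertical, from normalized count + 1), by sorted population, with symbols for litters and a line at the mean of 3. The first ratio is between 3.81 and 3.92 in RFP-only libraries and at most 0.85 in all others, while the second overlaps between RFP-only cells and both other populations.

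Fixed lists gave the rest of the pathway. In the supply of vitamin A (11 genes, 8 tested), Stra6, the membrane receptor that imports retinol, had 143, 335 and 230.3 normalized counts in double-positive libraries, 2004, 1781 and 1187 in RFP-only libraries, and 1533, 984 and 313 in GFP-only libraries. In each litter the double-positive library had the least Stra6. Its difference of double-positive from RFP-only cells was -2.86 ± 0.52 (adjusted p = 0.0151), the only gene of its list to pass there, and the call ended in 5 of 20 alternatives. From GFP-only cells it differed by -1.80 ± 0.52 (adjusted p = 0.0579, and 0.0481 with litter as a block). Scarb1, a scavenger receptor that takes up lipids and carotenoids, was lower than in GFP-only cells in double-positive (-1.16 ± 0.23, adjusted p = 0.0123) and in RFP-only cells (-1.42 ± 0.23, adjusted p = 0.00157). For double-positive cells its call ended in 2 of 20 alternatives. Bco2, a carotenoid-cleaving enzyme gene with a mean of 0.762 normalized counts in RFP-only and 34.4 in GFP-only cells, was the other to pass, lower in RFP-only cells (adjusted p = 0.0312). That call ended in 4 of 19 alternatives.

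Among other oxidoreductases of retinol and retinal (17 in the table, 12 tested), none passed in a comparison of double-positive cells. In RFP-only against GFP-only cells 2 were higher and 3 lower, where 11.8% of all tested genes were higher and 8.48% lower. The alcohol dehydrogenase genes Adh1 (1.97 ± 0.62, adjusted p = 0.0437) and Adh7 (4.65 ± 1.35, adjusted p = 0.032) were higher. Rdh11 (-0.96 ± 0.22, adjusted p = 0.0113) and Rdh12 (-1.95 ± 0.48, adjusted p = 0.0144), retinal reductases best known from the retina, were lower, as was Sdr16c5 (adjusted p = 0.0385, and 0.062 with litter as a block), with no read in RFP-only libraries and 2.48, 45.3 and 77.3 normalized counts in GFP-only libraries. The calls of Adh1, Adh7 and Sdr16c5 ended in 10, 8 and 7 of their alternatives, and those of Rdh11 and Rdh12 in 1 each. Cyp2s1, a P450 gene whose enzyme can hydroxylate retinoic acid, had 97.0, 116 and 76.3 normalized counts in double-positive libraries, 271, 136 and 155 in RFP-only libraries, and 14.1, 13.5 and 0 in GFP-only libraries. Both Creb5-reporter populations exceeded GFP-only cells in Cyp2s1, by 4.0 ± 0.91 (adjusted p = 0.0223) and 4.90 ± 0.91 (adjusted p = 0.00338). The call of double-positive cells ended in 5 of 20 alternatives. Fabp5, a carrier that takes retinoic acid to another nuclear receptor, did not pass in any comparison.

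Genes known to respond to retinoic acid (24 listed, 17 tested) moved in both directions. In RFP-only against GFP-only cells 8 were higher and 3 lower, where 11.8% of all tested genes were higher and 8.48% lower. The median log2 fold change of the list was 1.90, beside 0.05 over all genes. The homeobox genes Meis1 (2.25 ± 0.29, adjusted p = 0.000375) and Meis2 (2.49 ± 0.51, adjusted p = 0.00607), which the acid maintains in the proximal limb, were among the higher ones. So were Rarres1 (1.93 ± 0.29, adjusted p = 0.000955) and Rarres2 (4.40 ± 0.76, adjusted p = 0.00216), genes first described by their induction with a retinoid. The lower ones were Tgm2 (-3.93 ± 0.43, adjusted p = 0.000131), a transglutaminase gene of maturing cartilage, and the chondrocyte factors Sox5 (-5.17 ± 0.31, adjusted p = 4.96e-06) and Sox6 (-5.70 ± 0.68, adjusted p = 0.000233).

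In double-positive against GFP-only cells 4 genes of that list were higher, among them Zfp703 (0.98 ± 0.26, adjusted p = 0.0422), and Tgm2 was lower (-2.78 ± 0.43, adjusted p = 0.00341). Over all tested genes 5.27% were higher and 3.02% lower there. In double-positive against RFP-only cells Sox5 (4.63 ± 0.31, adjusted p = 5.04e-05) and Sox6 (5.64 ± 0.68, adjusted p = 0.00122) were higher, and Meis1 (-1.22 ± 0.29, adjusted p = 0.0492) and Rarres1 (-1.35 ± 0.29, adjusted p = 0.0332) were lower. The shares over all tested genes were 1.8% higher and 1.05% lower. Of the 4 genes that set double-positive above GFP-only cells, Zfp703, Rarres2 (adjusted p = 0.0495) and Tshz1 (adjusted p = 0.0488) lost their calls in 11, 14 and 15 of 20 alternatives, and the call of Meis1 in double-positive against RFP-only cells ended in 12. With litter as a block Zfp703 (adjusted p = 0.055) and Rarres1 (adjusted p = 0.0511) did not pass. Rarres1 lost its call in double-positive against RFP-only cells in 7 of 20 alternatives. Of 9 corepressor and coactivator genes, Ncoa1 (1.49 ± 0.26, adjusted p = 0.00223) and Ep300 (1.00 ± 0.27, adjusted p = 0.023), both coactivators, set RFP-only above GFP-only cells. The call of Ep300 ended in 4 of 20 alternatives. Ncoa1 was lower in double-positive cells relative to RFP-only cells (-1.09 ± 0.26, adjusted p = 0.048, and 0.0737 with litter as a block), a call that ended in 14 of 20 alternatives.

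**Figure D5:**
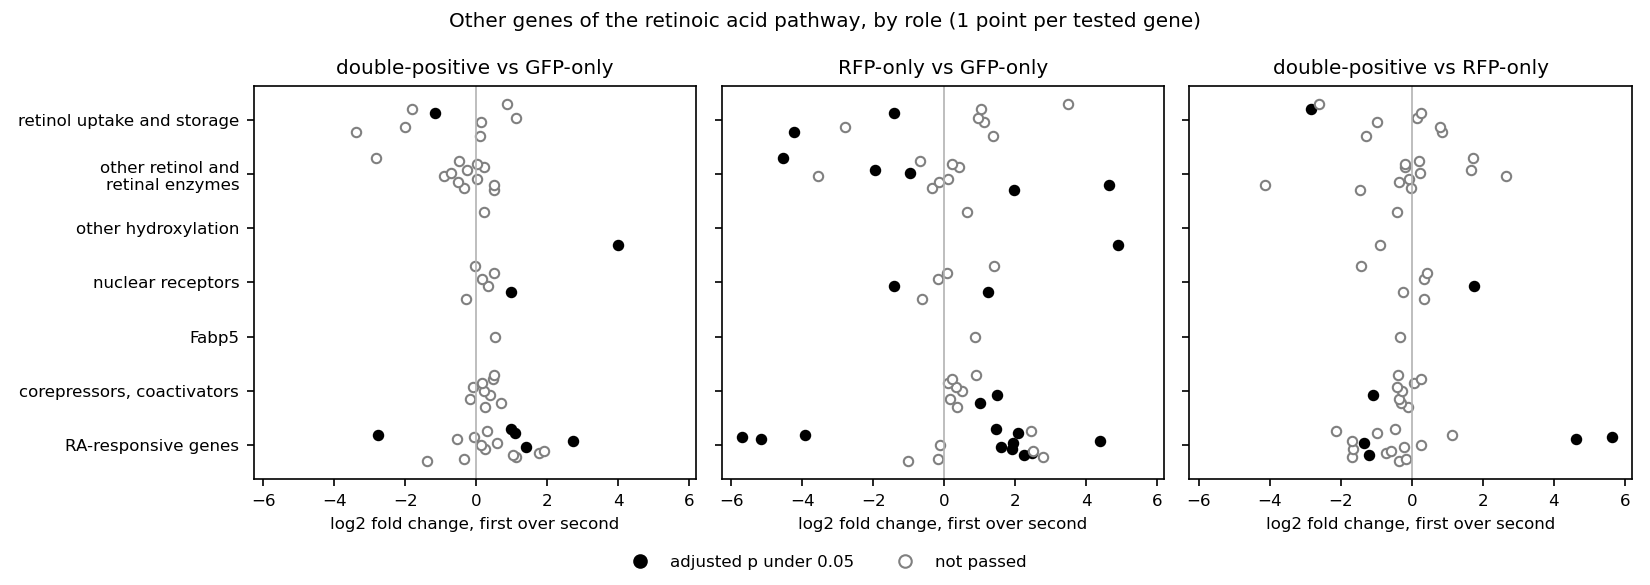
Log2 fold changes of the tested genes of each list of the retinoic acid pathway, in each comparison of sorted populations, with 1 point per gene, calls at adjusted p under 0.05 filled, and lists down the page by role. In RFP-only against GFP-only cells 8 of the 17 tested genes known to respond to retinoic acid are called higher and 3 lower. Over all tested genes 11.8% are called higher and 8.48% lower there.

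Markers of several other cell types also differed between the populations. Loose connective tissue markers set RFP-only above GFP-only cells for 6 of 6 genes, with sums of 68599.5 to 99732 normalized counts in RFP-only and 5786 to 8323 in GFP-only libraries. Skeletal muscle markers were higher for 7 of 7 genes, with sums of 7959 to 31436 and 589 to 1469 in those populations, and endothelial markers for 5 of 8, with 4234 to 5351 and 452 to 1153. Tendon markers were higher for 5 of 6 genes in that comparison, and pericyte and smooth muscle markers for 5 of 6 with 1 lower, with sums of 8218 to 13362 in RFP-only and 13116 to 16072 in GFP-only libraries. The lower one, Cspg4, made up most of the GFP-only sums (12104, 15047 and 13273 in litters 1, 2 and 5). These sums therefore do not follow the other markers of that list. Joint interzone markers were higher for 4 of 8 genes and lower for 3 in RFP-only against GFP-only cells. Schwann cell and neuron markers were higher for 2 of 7 and lower for 2. Blood and immune cell markers were higher for 4 of 10, epidermis markers for 1 of 6 and erythroid markers for 0 of 5. Of all tested genes, 11.8% were higher and 8.48% lower in that comparison. In double-positive against GFP-only cells 5 of 8 joint interzone, 5 of 6 tendon and 5 of 6 loose connective tissue markers were higher, and 6 of 9 cartilage markers and 1 interzone marker were lower. Of all tested genes, 5.27% were higher and 3.02% lower between these populations. Blood and immune cell markers were higher there for 7 of 10 genes, with sums of 2444 to 15769 in double-positive and 202 to 669 in GFP-only libraries. In double-positive against RFP-only cells 6 of 7 skeletal muscle markers were lower, against 1.05% of all tested genes. Within the double-positive population the litter 2 library, which had the most Aldh1a2, Aldh1a3, Crabp1 and Crabp2 RNA, also had the highest loose connective tissue sum (16388.0, 40032.5 and 21477 in litters 1, 2 and 5) and the highest endothelial sum (880.1, 4546 and 2577). The litter 5 double-positive library, which had the most Cyp26a1, Cyp26b1, Dhrs3, Rdh10 and Rarb RNA, had the highest cartilage sum (303583, 276230 and 744817 in litters 1, 2 and 5) and the highest blood and immune cell sum (2444, 6202 and 15769). Other sums were also highest in 1 of these libraries, except that of the joint interzone markers. The joint interzone sum was highest in litter 1 (100484, 79188 and 46559 in litters 1, 2 and 5). Litter 2 was also the highest double-positive library for the tendon, Schwann cell and neuron, epidermis and erythroid sums (erythroid 4625, 47348 and 20621). Litter 5 was also the highest for the skeletal muscle sum and the pericyte and smooth muscle sum. No gene of these lists was at 0 in every library of a population. The part of such cells in the differences of the retinoic acid genes was not tested.

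For each called gene, the named genes with a mean of at least 100 and the most similar pattern over the 9 libraries were found by Pearson's r on the log2 scale. For Aldh1a2 it was Foxn3, a forkhead factor gene (r = 0.989), for Rarb Armcx6 (0.984) and for Rdh10 Sgtb (0.978). Olfml2a was among the 3 most similar genes of both Aldh1a2 (0.988) and Rarb (0.983). For Crabp1 it was Plpp3, a lipid phosphatase gene (0.973), and for Crabp2 Blcap (0.976). For Cyp26a1 it was Tnfrsf1b, a receptor gene for tumor necrosis factor (0.968), followed by the Wnt receptor gene Fzd6 (0.936) and the glypican gene Gpc6 (0.935). For Cyp26b1 it was Ptpn14 (0.963), with the bone morphogenetic protein gene Bmp5 also among the first 3 (0.953), and for Dhrs3 it was Cryl1 (0.988). Among the 10 genes themselves, Aldh1a2 was most like Rarb (0.959) and Crabp2 (0.958), and the most opposed pair was Cyp26b1 and Crabp1 (-0.914). The points are 3 populations of 3 libraries that share litters, so these values describe likeness only.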

How the data were processed

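Polyadenylated RNA of about 250K to 500K sorted cells per sample was made into Nextera XT libraries, per the labels' protocols. The deposited signal per gene and library is a normalized count made by the authors. FastQC, STAR, Salmon, DESeq2 and the build mm10 are named in the submitters' processing notes, without versions, and the counting tool and strand setting are not given in the sources used here. Values were whole multiples of 1 read (100% in every library, tolerance 0.001 read), which gave back the reads. Symbols and coordinates are from GENCODE M21 (GRCm38), which matched 54495 identifiers and left 37.

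The test was limma 3.58.1 (R 4.3.3), two-sided, fitted to log2(normalized count + 1) of all 9 libraries at once, the variance prior following the mean. It took genes that averaged 10 or more. Adjusted p values are Benjamini-Hochberg over the 17764 genes tested. The procedure was also run on simulated counts with the same spread setting for every gene and no litter effect. These settings differ from the data, so that run does not measure how the tests behave here. The members and lists were chosen with earlier results of these data known. All 10 members are named, as are list genes, chosen among those that passed (1 of these is not reported here by name), and for each called member the most similar genes. Levels per kilobase use the summed length of a gene's merged exons. Ratios of gene pairs were compared by exact permutation tests.

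Each number marks a litter with its own isolation date, per the labels, so libraries of 1 litter are paired. Deviations from the population means correlated with a median of 0.103 within litters (9 pairs, -0.0353 to 0.149) and -0.0409 between litters (18 pairs). No pair of replicate libraries was a duplicate (chi-square over its degrees of freedom was 46.6 or more). Alternatives changed the pseudocount, filter, scaling, variance prior and populations in the fit, added litter as a block, left out single libraries, or used edgeR 4.0.16 or DESeq2 1.42.0 on the recovered reads.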

Additional observations from a re-analysis of the deposited data

How the results depend on the processing

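No difference of the 10 genes that passed in the planned fit or in an alternative changed direction. Of 327 values under alternatives other than a left-out library, 301 stayed on their side of the threshold, 9 lost a call and 17 gained one. Of 270 values with 1 library left out, 235 stayed, 22 lost a call and 13 gained one. Between RFP-only and GFP-only cells 7 to 9 of the 10 genes passed under every alternative, against 8 in the planned fit. The 2 genes called between double-positive and GFP-only cells became 1 with no filter, with quantile normalization or with only the 2 populations in the fit, and 0 with no trend in the variance prior. With 1 library left out it was 0 to 2. The 3 called between double-positive and RFP-only cells became 5 with a pseudocount of 5 or quantile normalization, 8 with DESeq2 and 7 with only the 2 populations, and 1 to 8 with 1 library left out. The causes were not tested. With Cyp26a1 as the degradation gene, an alternative added after the data were seen, the log2 ratio to Aldh1a2 differed by -0.71 between double-positive and GFP-only cells, against 1.49 with Cyp26b1. With litter as a replicate block the count between double-positive and RFP-only cells was 5, Aldh1a3 and Crabp1 being added. The block changed the count by 1.5 times or less in the other comparisons, and beside the calls named in the report it ended the RFP-only against GFP-only call of Nr2f2 and the double-positive against GFP-only call of Tshz1, and gave calls to Meis1 and Meis2 (double-positive against GFP-only) and to Stra6l and Por (RFP-only against GFP-only).

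Over all genes, 1472 were called between double-positive and GFP-only cells, 2780 with DESeq2, 697 with only those populations and 637 to 1553 with 1 library left out (637 and 855 when it was litter 2 and litter 1 of double-positive cells). In RFP-only against GFP-only cells 3601 were called, and 2190 to 3716 with 1 library left out (2258 and 2190 when it was litter 1 and litter 5 of RFP-only cells). In double-positive against RFP-only cells 506 were called, 1152 with DESeq2, 1008 with only those populations and 217 to 1050 with 1 library left out (277 or fewer for 5 of the 6 libraries compared, and 1050 for litter 5 of GFP-only cells). Aldh1a1 has no value under a filter at a mean of 50. Its 0 to 141 reads per library limit its precision, and 3 libraries per population limit every test.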

Other observations

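In the double-positive population the highest library was not spread evenly over the litters, with 0 genes highest in litter 1. In double-positive cells the litter 2 library was the highest of its population for Aldh1a1, Aldh1a2, Aldh1a3, Crabp1 and Crabp2, and the litter 5 library for the other 5 genes. In GFP-only cells the litter 2 library was the highest for Aldh1a2, Aldh1a3, Crabp1, Crabp2 and Rarb, and those of litters 1 and 5 for 3 and 2 genes. In RFP-only cells the litter 2 library was the highest for 2 genes, Dhrs3 and Crabp1, and those of litters 1 and 5 for 4 genes each. The litter 2 library of each population had the highest sum of loose connective tissue markers, at 68599.5, 99732 and 83982 normalized counts in RFP-only libraries of litters 1, 2 and 5 and 5786, 8323 and 7423 in GFP-only libraries. Most of the RFP-only sum was Dcn (43784.5, 75820 and 59001). Osr1 was also highest in litter 2 there (6995, 8821 and 5985), but Ebf2 (3635, 2385 and 3450) and Pdgfra (9382, 7576 and 10249) were lowest. In GFP-only libraries Osr1, Dpp4 and Ebf2 were highest in litter 2, and Dcn in litter 5 (896, 3380 and 4773). Whether the levels of the retinoic acid genes and these sums go together was not tested.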
